A study of Mus musculus with 4 samples.

Results

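Malat1, Meg3, Rian, Mirg, Snhg11, Snhg14 and Miat are long noncoding RNAs known mostly as nuclear transcripts. Miat was the least abundant of them here, at a mean of 62.35 CPM in all nuclei (CPM are counts per 1000000 UMIs). They were listed by name and found in the count matrices by Ensembl ID. All 7 were present among the 55422 genes of the matrices, and all 7 passed the filter on low counts in every comparison below. They were chosen by name with earlier results of these data known, and they were kept out of the clustering of nuclei. Nuclei were isolated from the hippocampus of adult mice on an iodixanol density gradient and profiled with the 10x Chromium system on an Illumina NovaSeq. The Control group held 2 libraries from Kat6a-f/f mice, in which Kat6a, a histone acetyltransferase gene, is flanked by loxP sites. The Kat6a-cKO group held 2 libraries from mice that carried NEX-cre together with Kat6a-f/f. NEX-cre is expressed from the Neurod6 locus in excitatory neurons of the forebrain, so inhibitory neurons and glia are not its target. The labels do not say that the 2 libraries of a group came from separate animals, so every p-value measures the spread between these libraries, which may be technical.

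Long noncoding RNAs of this kind act as RNA, without a protein product. Malat1 is retained in nuclear speckles, the compartments that store splicing factors, and is made in nearly all cells from a gene without introns. Meg3, Rian and Mirg are made from the maternal chromosome of the imprinted Dlk1-Dio3 domain, and their transcripts host small nucleolar RNAs and microRNAs. Snhg14 is the long paternally expressed transcript of the Prader-Willi and Angelman domain and runs antisense into Ube3a, whose paternal copy is silent in neurons. Snhg11 is a host gene of small nucleolar RNAs with high levels in neurons. Miat, also called Gomafu, accumulates in neuronal nuclei outside the speckles and carries copies of a motif that resembles the branch point of introns and binds splicing factors.

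The genes lie at 5 places in the genome, given here from GENCODE M21 (GRCm38). Malat1 is at chr19:5795690-5802672 on the minus strand, and its longest transcript is 1 exon of 6983 bases. Meg3 is at chr12:109541001-109571726, Rian at chr12:109603940-109661716 and Mirg at chr12:109729764-109749460, all on the plus strand. Snhg11 is at chr2:158375638-158386145 on the plus strand and is typed there as protein coding. Snhg14 is at chr7:59307924-59975759 on the minus strand, where exons make up 3.91% of a span of 667836 bases that overlaps 213 other annotated genes. Its end overlaps 3613 bases of Ube3a on the opposite strand. Miat is at chr5:112213228-112229395 on the minus strand and shares 13935 bases with Gm26953 on the opposite strand, while Meg3 shares 3096 bases with the opposite-strand gene Gm26906. Whether counting used the strand, and whether introns were counted, is not given in the sources used here. Reads of these overlapping pairs may therefore be mixed.

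The microRNAs inside the 3 transcripts of the Dlk1-Dio3 domain were read from RefSeq (GRCm38.p6), because the maternal transcripts are known as their precursors. Meg3 held 3 mature sequences, from Mir770 and Mir1906-1, Rian held 6 and Mirg held 26. The whole interval between Dlk1 and Dio3 held 114 mature sequences. The matrices counted the long transcripts and not mature microRNAs. An example from each host and the pair of Mirg microRNAs that share a seed are printed, with bases 2 to 8, the seed, in capitals.
mmu-miR-770-5p, within Meg3, chr12:109563710-109563731: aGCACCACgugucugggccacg
mmu-miR-370-3p, within Rian, chr12:109618305-109618326: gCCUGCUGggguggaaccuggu
mmu-miR-134-5p, within Mirg: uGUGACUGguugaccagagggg
mmu-miR-453, within Mirg: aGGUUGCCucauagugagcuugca
mmu-miR-496a-5p, within Mirg: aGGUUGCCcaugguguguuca
The last pair shares the seed GGUUGCC, which no other mature sequence of the interval had. The first 3 have seeds found once each in it.

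Meg3, Rian and Mirg varied together over the classes of nuclei, so their RefSeq promoter windows of 250 bases before to 50 after the annotated start (GRCm38.p6) were compared. RefSeq has 2 windows for Meg3. The one at the start of the M21 gene, chr12:109540746-109541045, plus strand, is printed with the cyclic AMP response element TGACGTCA and the TATA-box letters TATAAA in capitals, both searched on both strands.
Meg3 promoter window: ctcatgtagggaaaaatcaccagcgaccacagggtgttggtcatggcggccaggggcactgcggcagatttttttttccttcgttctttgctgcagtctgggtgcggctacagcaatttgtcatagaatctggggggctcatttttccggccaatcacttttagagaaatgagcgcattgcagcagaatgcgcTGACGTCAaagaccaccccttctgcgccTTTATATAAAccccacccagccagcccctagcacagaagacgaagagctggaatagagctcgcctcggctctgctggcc
It held 1 match to TGACGTCA and 2 overlapping matches to TATAAA, 1 on each strand. Of the 32817 windows in the table, 1.792% held TGACGTCA and 13.621% held TATAAA. The other Meg3 window, at chr12:109545148-109545447, held neither. The Rian window at chr12:109603695-109603994 and the Mirg window at chr12:109734731-109735030 held neither, and the Mirg window lies inside the M21 gene. A match is a description of these letters and no evidence of a bound factor.

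The repeat of Miat was read from its longest transcript in GENCODE M21, Miat-205, with 9163 bases. It held 6 copies of TACTAAC on the transcribed strand. At least 1 copy was present in 5101 of 141767 transcripts (3.598%), and 5 transcripts, of AC154442.1, Gfap, Miat and Slc8a1, had as many as Miat-205. The stretch of 300 bases with the most copies, bases 4773 to 5072 of the transcript, is printed with the 3 copies in capitals.
Miat-205, bases 4773 to 5072: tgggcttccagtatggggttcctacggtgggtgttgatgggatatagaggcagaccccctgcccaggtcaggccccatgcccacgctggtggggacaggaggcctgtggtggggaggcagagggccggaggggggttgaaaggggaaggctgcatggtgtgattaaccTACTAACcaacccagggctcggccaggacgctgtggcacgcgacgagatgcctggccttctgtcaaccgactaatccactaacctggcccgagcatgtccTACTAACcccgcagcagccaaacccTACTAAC

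The libraries held between 171323466 and 186897245 UMIs, the molecules counted after removal of duplicate reads. Between 7438 and 7911 barcodes per library had 5000 UMIs or more and were not called doublets; these are called all nuclei below. Clusters were named where marker genes of a type were raised, so that each class is "CA1-like" and so on. The 10 classes used had at least 30 nuclei in every library, with glia admitted from 1000 UMIs. Clusters left unnamed held between 10.6% and 12.4% of all nuclei in a library. Most lists were highest in their own class: summed levels of the own list were 2738 to 2930 CPM in dentate granule, 4399 to 4954 in CA3 pyramidal and 14909 to 15640 in inhibitory nuclei. The CA2 list did not set its class apart, at 233 to 272 CPM in CA2 pyramidal nuclei and 203 to 300 CPM in microglia. The CA2 class also held 1262 to 1403 CPM of the CA3 list and 3538 to 3995 CPM of the subicular list. CA3 pyramidal nuclei held 3833 to 4560 CPM of the subicular list, which overlapped with their own list. Dentate granule nuclei held 1408 to 1701 CPM of the inhibitory list. In CA1 pyramidal nuclei the subicular list, at 623 to 845 CPM, exceeded the CA1 list, at 503 to 542 CPM. The oligodendrocyte precursor class also held 8935 to 9576 CPM of the inhibitory list, which includes Erbb4 and Nxph1. Between 15 and 20 nuclear barcodes were shared by any pair of libraries. The targeted gene Kat6a had 78.9 and 80.0 CPM over the nuclei of each Control library, and 72.8 and 73.3 CPM over those of each Kat6a-cKO library. Which part of Kat6a was deleted is not given in the sources used here, and counts from outside that part check nothing.

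**Figure D1:**
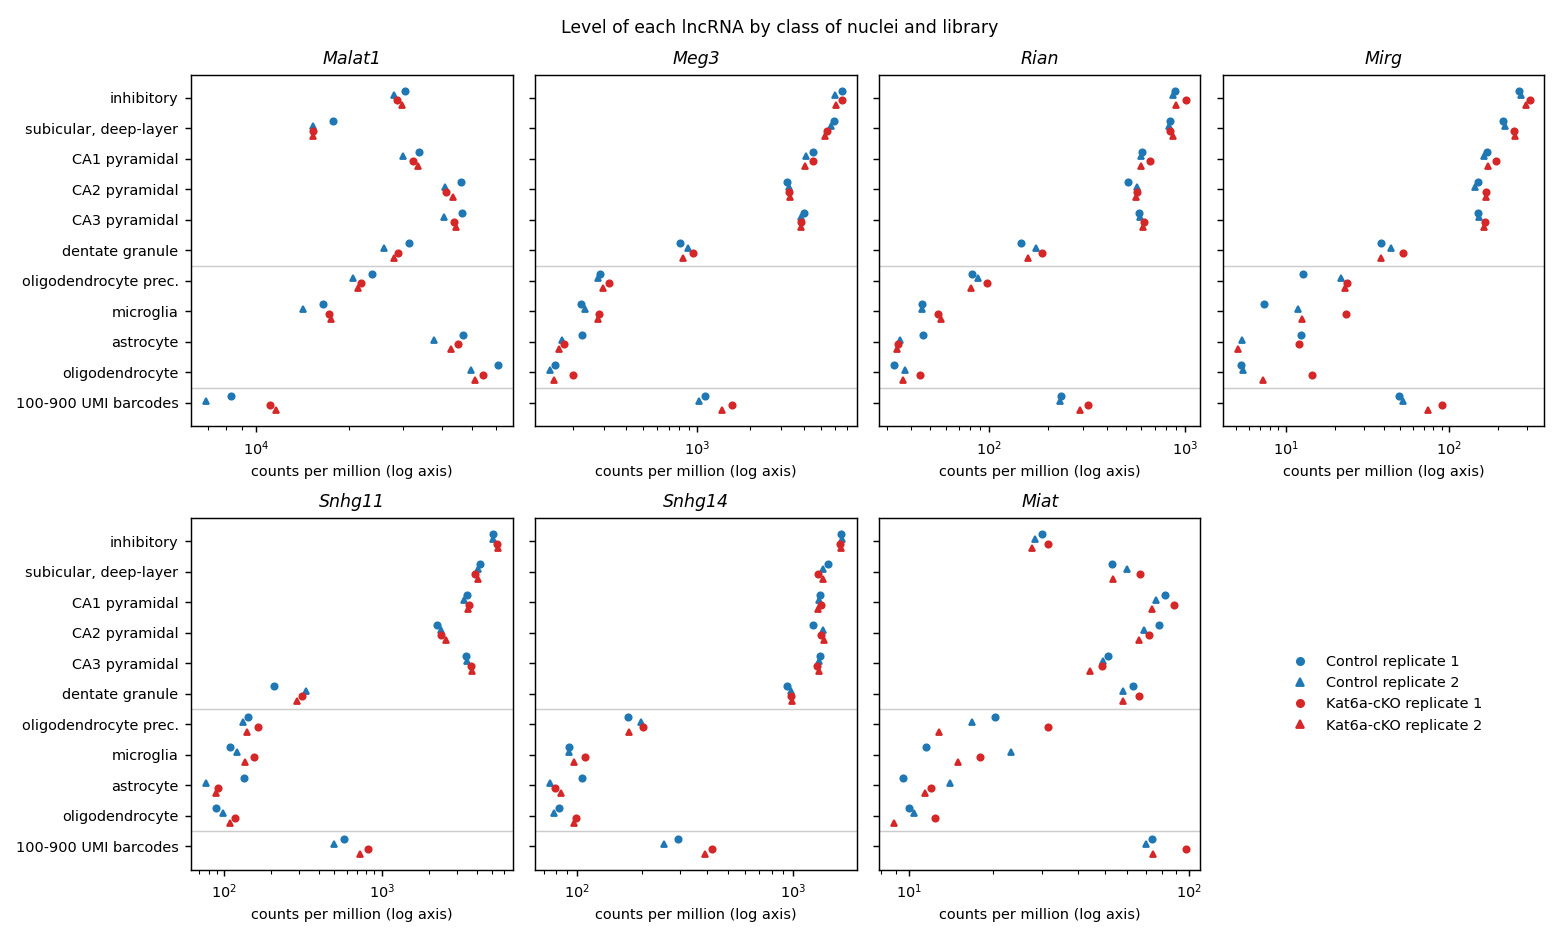
Level of each RNA in CPM (log axis) by class of nuclei, with 1 point per library; the bottom row of each panel is the barcodes of 100 to 900 UMIs. Meg3, Rian, Mirg and Snhg11 are high in inhibitory, subicular and pyramidal nuclei, lower in dentate granule nuclei and lowest in glia, whereas Malat1 is high in oligodendrocytes and Miat in CA1.

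Together the 7 RNAs made up 3.97% ± 0.187 (SD, n = 4 libraries) of the UMIs of all nuclei. Their share was highest in oligodendrocytes, at 5.45% ± 0.492, and in CA3 pyramidal nuclei, at 5.34% ± 0.249. It was 3.09% ± 0.202 in dentate granule nuclei and lowest in microglia, at 1.69% ± 0.158. Malat1 was the largest component in every class, but the share did not follow Malat1 alone. Subicular nuclei, with a Malat1 mean of 15933 CPM, had a share of 2.81%, above that of microglia. UMIs count molecules and need not rise with transcript length. In CPM the means over all nuclei were 31615 for Malat1, 3439 for Meg3, 2620 for Snhg11 and 1248 for Snhg14. They were 520 for Rian, 145 for Mirg and 62.35 for Miat. Levels were also set per kilobase of the longest annotated transcript, which places Snhg11 above Meg3. On that scale the means over all nuclei were 4527 CPM per kilobase for Malat1, 447 for Snhg11, 236 for Meg3, 182 for Snhg14, 64.3 for Rian, 38.1 for Mirg and 6.81 for Miat. Long genes counted over introns would rank differently, since Snhg14 had 1.869 and Meg3 111.939 CPM per kilobase of gene span.

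Malat1, the speckle RNA, was abundant in every class and ranged 3.39-fold between class means. Library values below are given in the order Control 1, Control 2, Kat6a-cKO 1 and Kat6a-cKO 2. In oligodendrocytes Malat1 was at 60817, 49668, 54388 and 51272 CPM. In subicular and deep-layer excitatory nuclei it was at 17819, 15368, 15268 and 15278 CPM. All 4 oligodendrocyte values lay above every value of the other classes. CA3 pyramidal (mean 43753 CPM), astrocyte (43184 CPM) and CA2 pyramidal nuclei (42968 CPM) followed and overlapped. CA1 pyramidal (32364 CPM), inhibitory (29194 CPM) and dentate granule nuclei (28530 CPM) also overlapped. Oligodendrocyte precursors had a mean of 21926 CPM, separate from both neighbours, and microglia, at 16375 CPM, overlapped with the subicular class. Within a library, the level in CA3 was 1.35 ± 0.02 times that in CA1 (SD, n = 4). Control library 1 was the highest of the 4 in 9 of the 10 classes, and in all nuclei, at 33710 CPM against 29426, 31105 and 32219.

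Meg3, the first transcript of the maternal Dlk1-Dio3 unit, was a neuronal RNA in these nuclei, with a 37.9-fold range between class means. Inhibitory nuclei had 6583, 6016, 6589 and 6080 CPM. CA1 pyramidal nuclei had 4498, 4119, 4504 and 4084 CPM. Dentate granule nuclei had 804, 893, 955 and 838 CPM. The 3 sets do not overlap, and the 6 neuronal classes were ordered without overlap as inhibitory, subicular, CA1, CA3, CA2 and dentate granule. Within a library CA1 exceeded dentate granule nuclei 4.95 ± 0.44-fold (SD, n = 4), and inhibitory exceeded dentate granule nuclei 7.27 ± 0.65-fold. The glial classes had means of 167 to 296 CPM, with oligodendrocytes lowest at 159, 149, 202 and 158 CPM. These glial levels were below the 1032 to 1575 CPM of the low-count barcodes of the same libraries, so how much of them was free RNA was not tested.

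Rian and Mirg, the small nucleolar RNA host and the microRNA host downstream of Meg3, had the same order of neuronal class means. Rian was at 895, 875, 1012 and 904 CPM in inhibitory nuclei and at 145, 174, 187 and 158 CPM in dentate granule nuclei. Mirg was at 268, 274, 311 and 293 CPM in inhibitory nuclei and at 38.3, 44.1, 51.9 and 38.6 CPM in dentate granule nuclei. Neither pair of sets overlaps. For both RNAs, the ranges of CA1 and CA3 overlapped, and for Mirg those of CA3 and CA2 overlapped as well. The CA1 level was 3.73 ± 0.32 times the dentate granule level for Rian and 4.08 ± 0.43 times for Mirg (SD, n = 4). In oligodendrocytes and astrocytes Rian had means of 37.5 and 37.2 CPM and Mirg of 8.18 and 8.75 CPM.

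The ratio of Rian to Meg3 was not the same in every class. Means of UMI ratios were between 0.143 and 0.167 in the 5 neuronal classes other than dentate granule. In dentate granule nuclei the ratio was 0.190 ± 0.007 (SD, n = 4 libraries), and its lowest library, at 0.181, was above the highest CA2 library, at 0.173. It was 0.198 in astrocytes and microglia, 0.226 in oligodendrocytes and highest, at 0.293 ± 0.018, in oligodendrocyte precursors. Class means of Mirg relative to Rian lay between 0.211 and 0.311, with wide scatter between libraries in glia. The highest neuronal value was in inhibitory nuclei, at 0.311 ± 0.010. In the low-count barcodes the ratio of Rian to Meg3 was 0.210 ± 0.009, and the lowest oligodendrocyte precursor library, at 0.272, was above the highest of these, at 0.222. In dentate granule nuclei, as in glia, Meg3, Rian, Mirg and Snhg11 were below the low-count barcodes of the same library. The dentate granule levels were 0.361 to 0.865 times those of the barcodes. The part of free RNA in the dentate granule ratio was not tested.

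**Figure D2:**
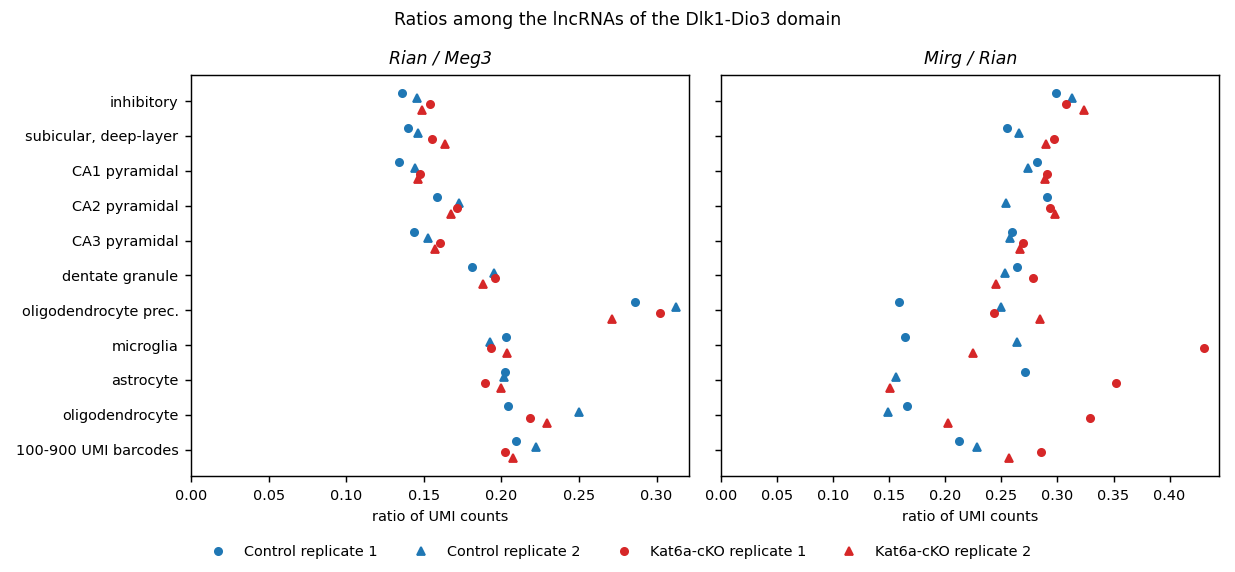
Ratio of UMI counts between Rian and Meg3 (left) and between Mirg and Rian (right), by class of nuclei, with 1 point per library. The dentate granule libraries, at 0.181 to 0.196, lie to the right of the other neuronal classes in the left panel, and glial values in the right panel scatter widely.

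Snhg11 had the widest range of the 7, 53.2-fold between inhibitory nuclei and astrocytes. Inhibitory nuclei had 5050, 5041, 5352 and 5466 CPM. CA3 pyramidal nuclei had 3439, 3484, 3670 and 3762 CPM, overlapping with CA1. Dentate granule nuclei had only 208, 334, 311 and 290 CPM, all below the 2230 to 2567 CPM of CA2, the next class up. Control library 1 was the lowest of the dentate granule set. The CA1 level exceeded the dentate granule level 12.6 ± 2.9-fold within libraries (SD, n = 4), the largest step between these classes among the 7. The glial means were 98.3 to 144 CPM.

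Snhg14 separated neurons from glia and changed little among neurons. It was at 1669, 1694, 1667 and 1669 CPM in inhibitory nuclei and at 942, 984, 987 and 992 CPM in dentate granule nuclei. The subicular, CA2, CA1 and CA3 classes, with means of 1319 to 1386 CPM, overlapped in their order. The CA1 to dentate granule ratio was 1.37 ± 0.04, against 4.95 for Meg3. Oligodendrocyte precursors had 187 CPM, and the other glia had 85.8 to 97.1 CPM. Ube3a, the ubiquitin ligase gene at the far end of this transcript, was at a mean of 589 CPM in dentate granule and 1020 CPM in inhibitory nuclei. Snrpn, a splicing factor gene of the same imprinted domain, was at 73.7 and 143 CPM there.

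Miat had a different order of neurons. It was at 82.1, 76.2, 88.3 and 73.6 CPM in CA1 pyramidal nuclei and at 30.0, 28.3, 31.4 and 27.5 CPM in inhibitory nuclei. CA2 (mean 71.2 CPM), dentate granule (61.4 CPM), subicular (58.2 CPM) and CA3 nuclei (48.5 CPM) lay between. Inhibitory nuclei, the highest class for Meg3, Rian, Mirg, Snhg11 and Snhg14, had 0.366 ± 0.008 times the CA1 level of Miat (SD, n = 4). Inhibitory nuclei overlapped with oligodendrocyte precursors, whose mean was 20.3 CPM. Levels in the other glia were 10.4 to 16.9 CPM, each resting on few molecules. In CPM, CA1 nuclei had 1.02 times the Miat level of the low-count barcodes (0.907 to 1.12 over libraries). The mean ratio was 0.918 in CA2, 0.787 in dentate granule, 0.744 in subicular, 0.626 in CA3 and 0.376 in inhibitory nuclei. In glia it was 0.133 to 0.252. The part of free RNA in these levels was not tested.

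Single nuclei of a class also varied. Malat1 was counted in every CA1, dentate granule and inhibitory nucleus. The 10th and 90th percentiles of CA1 nuclei spanned at most 20661 to 43566 CPM over the libraries. In the same CA1 nuclei Mirg was not counted in 7.32% to 10.1% and Miat in 24.1% to 31.3%. Median depths differed between classes, from 11058 to 12015 UMIs in dentate granule and from 16987 to 18641 in CA1 nuclei, so shares of nuclei with a count were not compared between classes.

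Genes with the most similar pattern were sought over the 10 classes, by Pearson correlation of log2(CPM + 1) of class means among 6778 genes with a mean of 20 CPM or more, with the 7 RNAs left out of the ranking. Among the 7, Rian and Mirg were the closest pair (r = 0.9990), and Meg3 had r = 0.9970 with Mirg, 0.9960 with Rian and 0.9907 with Snhg11. The points share libraries and depth, include both neuronal and glial classes, and no p-value was attached. Across nuclei within a class, thinned to 5000 UMIs, Spearman correlations were far lower. Medians over libraries in CA1, CA3, dentate granule and inhibitory nuclei were 0.046 to 0.134 for Rian with Mirg. For Meg3 with Mirg they were 0.044 to 0.193. Counts of Mirg per nucleus are low at that depth. For Rian (r = 0.9985) and Mirg (r = 0.997) the nearest other gene was Rtl1, a retrotransposon-derived protein-coding gene between Meg3 and Rian on the other strand. For Meg3, outside the 7, it was B830012L14Rik (r = 0.992), then Rtl1 and Gm37899, all between Dlk1 and Dio3. Outside the 7, Rtl1 was also nearest to Snhg11 (r = 0.982), followed by Zfp385b and B830012L14Rik. Rtl1 had a mean of 72.7 CPM in inhibitory, 42.8 CPM in CA1, 10.2 CPM in dentate granule and 1.95 CPM in astrocyte nuclei. Its span, chr12:109589193-109600330, holds plus-strand microRNAs such as mmu-miR-127-3p at chr12:109592888-109592909. The strand setting is not given, and whether counts of Rtl1 include plus-strand RNA was not tested. For Snhg14 the nearest was A230103L15Rik (r = 0.995), which lies inside Snhg14 on the same strand, followed by the calcium channel gene Cacna1b and Mir124a-1hg. Celf5 was nearest to Miat (r = 0.980), and Add2 was also among its nearest genes (r = 0.969). Malat1 had no close match, with Tbc1d32 nearest at r = 0.855, and its correlations with the other 6 were between -0.13 and -0.04.

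The protein-coding neighbours of the Dlk1-Dio3 domain did not all have the neuronal pattern of the maternal RNAs. Of the 8 listed, the 5 with the highest levels were Ppp2r5c, a phosphatase subunit gene, Rtl1, Yy1, Wdr25 and Wars. Yy1, a transcription factor gene, was at a mean of 28.5 CPM in dentate granule and 26.1 CPM in CA1 nuclei and at 62.4 CPM in microglia. Ppp2r5c was at 275 CPM in CA2 and 96.3 CPM in dentate granule nuclei.

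To compare nuclei with the RNA around them, the sums over all nuclei were set against barcodes of 100 to 900 UMIs of the same library. These barcodes are mostly droplets without a nucleus. There were 70816 to 73544 of them per library. Of the 7 RNAs, 6 were higher in the sum over all nuclei, and Miat was not. The test was edgeR's quasi-likelihood test with the library as a block. Most glial nuclei lie below the UMI limit of this sum. By class, only Malat1 was above the low-count barcodes throughout. In dentate granule nuclei the mean ratios were 0.70 for Meg3, 0.63 for Rian, 0.68 for Mirg and 0.45 for Snhg11, but 2.99 for Snhg14. These RNAs, Snhg14 included, were below the barcodes in every glial class and above them in the other neuronal classes.

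In all nuclei and in low-count barcodes respectively, Snhg14 was at 1209, 1247, 1255 and 1280 CPM and at 294, 252, 420 and 394 CPM. Snhg11 was at 2391, 2466, 2748 and 2877 CPM in nuclei and at 576, 502, 825 and 730 CPM in low-count barcodes. Malat1 was at 8315, 6893, 11093 and 11638 CPM in the low-count barcodes, below every class of nuclei. For all 3 the sets do not overlap. Within libraries, nuclei exceeded low-count barcodes 4.08-fold for Snhg11, 3.83-fold for Snhg14, 3.47-fold for Malat1, 2.75-fold for Meg3, 2.27-fold for Mirg and 1.96-fold for Rian. These are means of 4 libraries, all above 1. The Miat ratio was 0.863, 0.852, 0.695 and 0.787, below 1 in all 4 libraries.

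After TMM scaling, which centres the bulk of genes, the log2 differences (SE) were 2.43 (0.09) for Snhg11, 2.33 (0.10) for Snhg14, 2.19 (0.13) for Malat1, 1.86 (0.09) for Meg3, 1.58 (0.08) for Mirg and 1.39 (0.07) for Rian. The largest of their adjusted p-values by edgeR was 1.77e-10. In this comparison 84.3% of 22620 genes were called, 42% as higher in nuclei and 42.3% as lower, so being called is common, and 6 of 7 higher is read against 42%. Miat had 0.09 (0.06), with an adjusted p of 0.192. The direction of Miat depends on the scaling. With total counts alone, which moved the median of all genes by -0.42, its difference was -0.33 (edgeR adjusted p = 0.00107). Against barcodes of 100 to 300 UMIs its difference was 1.04 and passed the test. No direction is therefore given for Miat.

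The other lists were read beside this comparison, and the genes named from them here were chosen after their values were seen. Of 80 ribosomal protein genes tested, 77 were lower in nuclei and 1 was higher, with a median log2 difference of -3.77. All 13 mitochondrially encoded protein genes were lower, with a median of -2.34. Of 13 abundant cytoplasmic neuronal messenger RNAs, 11 were lower and 2 higher. Of 41 other long noncoding RNAs tested, 23 were higher and 15 lower, with a median of 0.95 beside -0.003 for all genes tested and 1.86 for the 7. Gm26871 (2.83), A230057D06Rik (2.74) and Pvt1 (2.47) were as high as Snhg11. Gas5 (-2.90), Zfas1 (-2.36) and Snhg1 (-1.61), like Snhg11 and Snhg14 host genes of small nucleolar RNAs, were lower. Neat1, the scaffold RNA of paraspeckles, was -0.35 (adjusted p = 0.0319). Within the Dlk1-Dio3 list, Rtl1 (1.60), Wdr25 (1.74) and Ppp2r5c (0.36) were higher, and Dio3, Dlk1, Yy1, Wars and Begain were lower. Within the Prader-Willi and Angelman list, Ube3a (1.90), the receptor gene Gabrg3 (2.71) and Atp10a (1.54) were among those higher, and Snrpn (-1.26), Gabra5 (-1.72) and Peg12 (-2.29) were lower. Of 17 genes of speckle and paraspeckle proteins, 9 were higher and 5 lower.

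**Figure D3:**
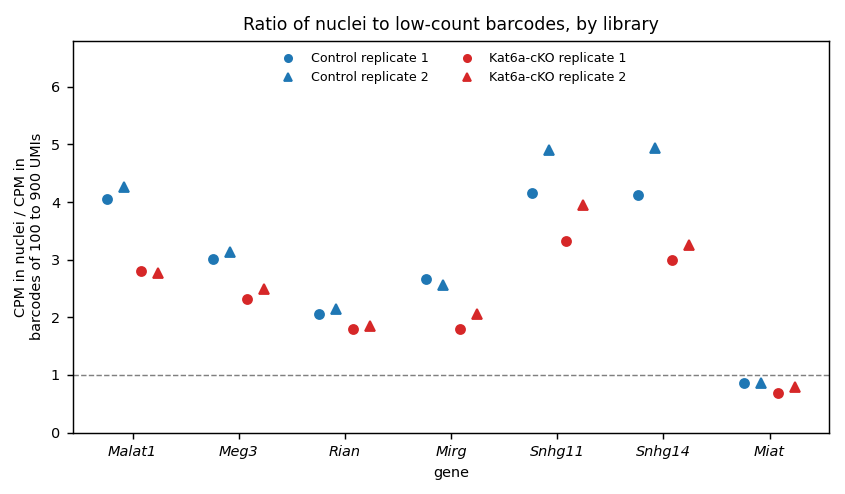
Ratio of CPM in all nuclei to CPM in barcodes of 100 to 900 UMIs (vertical axis, from 0), with 1 point per library and a dashed line at 1. The ratios of 6 RNAs are above 1 in all 4 libraries, Miat is below 1, and both Kat6a-cKO libraries lie below both Control libraries for each RNA.

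Levels did not simply rise with the size of the barcode. At fewer than 100 UMIs there were 2159826 to 2249481 barcodes per library. Together those of a library held 5520611 to 6301903 counts, so they averaged only a few UMIs each. What they contain was not tested. Barcodes of fewer than 100 UMIs had 21870, 20405, 19746 and 18589 CPM of Malat1, more than the range from 100 to under 300 UMIs, which had 8348, 7292, 10321 and 18261 CPM. Means over the libraries at fewer than 100 UMIs were also above those at 300 to 900 UMIs for Meg3, Rian, Mirg, Snhg11 and Snhg14, and not for Miat. In all nuclei, the level was 1.57 times that of barcodes under 100 UMIs for Malat1, 1.89 times for Snhg11 and 1.82 times for Snhg14. It was 1.58 times for Rian, 1.55 times for Meg3, 1.11 times for Mirg and 1.08 times for Miat. Malat1 was below the barcodes under 100 UMIs in subicular (0.791) and microglia nuclei (0.817). The low-count range of 100 to 900 UMIs had 0.477 times their level for Malat1 and 0.472 times for Snhg11. From 2000 to under 5000 UMIs, where most glial nuclei lie, Malat1 rose and Meg3 had its lowest values. From 100 to under 300 UMIs, Kat6a-cKO library 2 stood apart for Malat1 and for mitochondrially encoded genes.

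**Figure D4:**
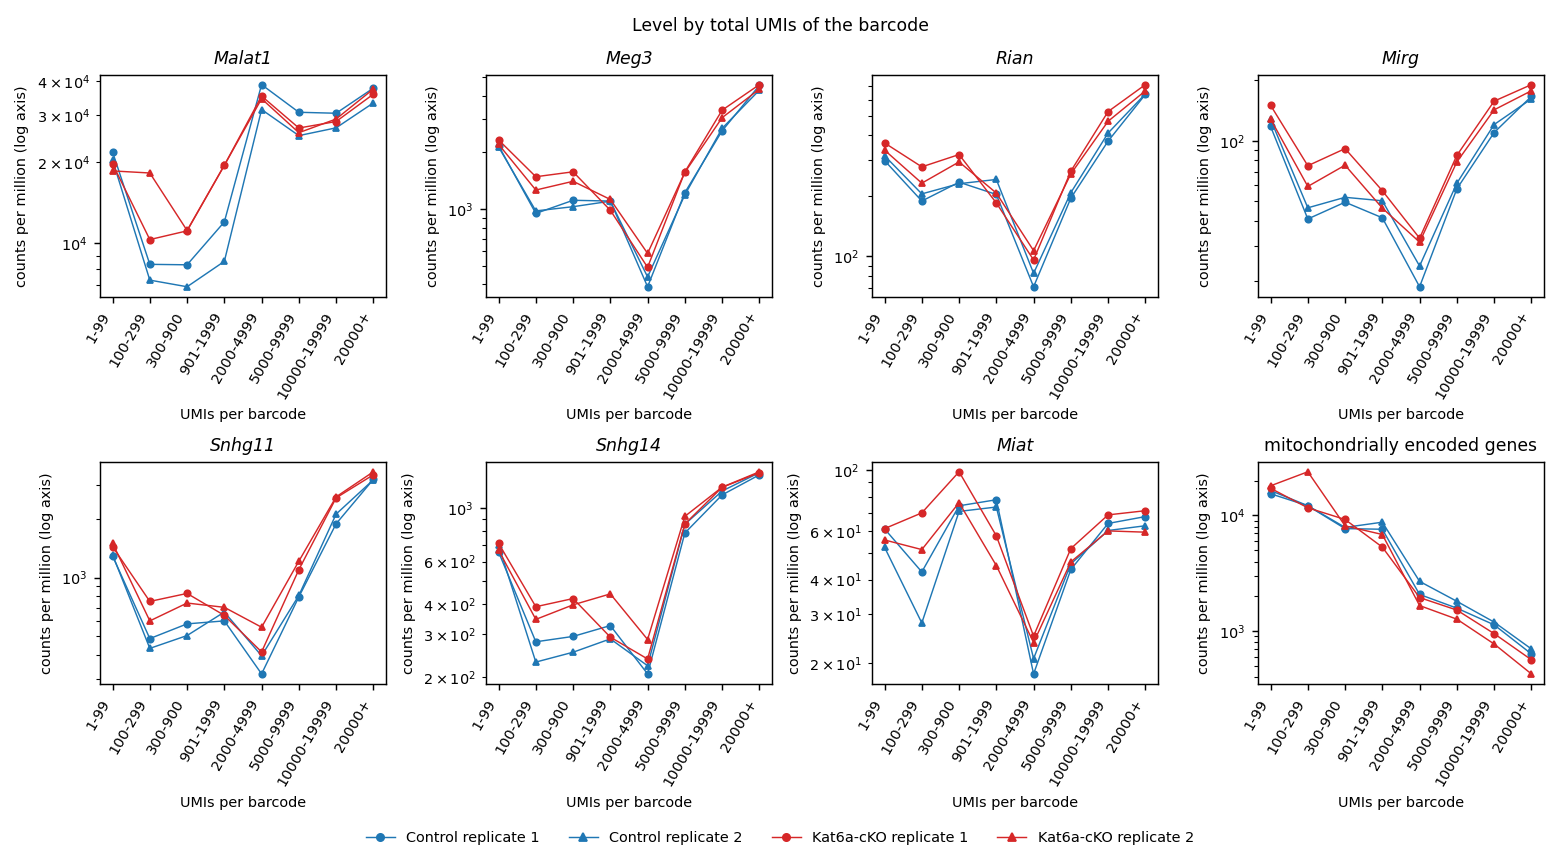
Level in CPM (log axis) by UMIs per barcode, with 1 line per library, for the 7 RNAs and for the sum of mitochondrially encoded genes. The neuronal RNAs dip between 2000 and 5000 UMIs and rise above 5000, whereas the mitochondrial sum falls toward large barcodes.

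To ask whether the Kat6a-cKO genotype went with other levels of these RNAs, it was compared with Control within each class by edgeR's quasi-likelihood test. The groups differ in NEX-cre as well as in Kat6a, and the design cannot tell these apart. None of the 70 differences, 7 RNAs in 10 classes, passed an adjusted p of 0.05. DESeq2 called 0 of 70 as well. An unadjusted edgeR p under 0.05 was found for 9 of the 70. The share of all genes at that threshold is not reported here, and the shares below are for adjusted calls. Over all genes, edgeR called 0.0117% in CA1, 0.0682% in CA3, 0.0768% in CA2, 0.375% in dentate granule, 0.829% in subicular and 0.0337% in inhibitory nuclei. In glia it called 1.16% in astrocytes, 0.00855% in oligodendrocytes, 0.317% in oligodendrocyte precursors and 0.01% in microglia. The DESeq2 background was between 0 genes called in microglia and 206 in dentate granule nuclei, with 109 in CA1.

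Among the 6 neuronal classes, log2 differences of the 7 RNAs, Kat6a-cKO minus Control, lay between -0.10 (Miat in CA3, SE 0.09) and 0.24 (Mirg in the subicular class, SE 0.09, edgeR adjusted p = 0.370). For Malat1 in dentate granule nuclei the difference was -0.0021 (SE 0.098), and for Meg3 in CA1 0.01 (SE 0.09). Mirg was the RNA with the most differences at an unadjusted edgeR p under 0.05, 4 of 10. That count has no share of all genes beside it. Mirg was positive in 9 of 10 classes, as was Rian. In CA1, Mirg was at 170, 163, 193 and 172 CPM. Both Kat6a-cKO libraries were above both Control libraries, and the log2 difference was 0.15 (SE 0.09, edgeR adjusted p = 0.717). In CA3, Mirg was at 151, 152, 167 and 163 CPM, again without overlap. Such a separation upwards in CPM was found for 2 of the 7 RNAs in CA1, against 15.3% of genes, and for 3 in CA3, against 16.3%. In the other excitatory classes it was found for 2 of 7 in CA2 (18% of genes), 1 in dentate granule (16.5%) and 2 in subicular nuclei (15.3%). Separation downwards was found for Miat in CA3 (20.6% of genes) and for Malat1, Meg3 and Snhg11 in subicular nuclei (22.8%). In inhibitory nuclei, which NEX-cre does not target, Mirg was at 268, 274, 311 and 293 CPM, with a log2 difference of 0.17 (SE 0.07, edgeR adjusted p = 0.659). Rian, Mirg and Snhg11 had both Kat6a-cKO libraries above both Control libraries there, against 14.7% of genes.

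In glia the differences spread more widely, and counts were low. Mirg in oligodendrocytes was at 5.37, 5.53, 14.5 and 7.31 CPM, with a log2 difference of 1.07 (SE 0.35, edgeR adjusted p = 0.380). Mirg in microglia was at 7.43, 11.99, 23.5 and 12.7 CPM, a log2 difference of 1.00 (SE 0.41, edgeR adjusted p = 0.448). In both, Kat6a-cKO library 1 had by far the highest value.
Of the 7 RNAs, 6 had non-overlapping groups with Kat6a-cKO higher in microglia, against 16.8% of genes. Their log2 differences ran from 0.20 (Snhg14) to 1.00 (Mirg). The low-count barcodes of the same libraries differed in the same direction, as given below, and the part of free RNA in these glial values was not tested. In astrocytes 5 of the 7 differences were negative, the lowest being Rian at -0.24 (SE 0.22). None of the 7 was separated upwards there, against 13% of genes, and Rian alone was separated downwards, against 24.1%. Upward separation was found for Mirg, Snhg11 and Snhg14 in oligodendrocytes (16.1% of genes) and for Meg3 and Mirg in oligodendrocyte precursors (15.4%).

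**Figure D5:**
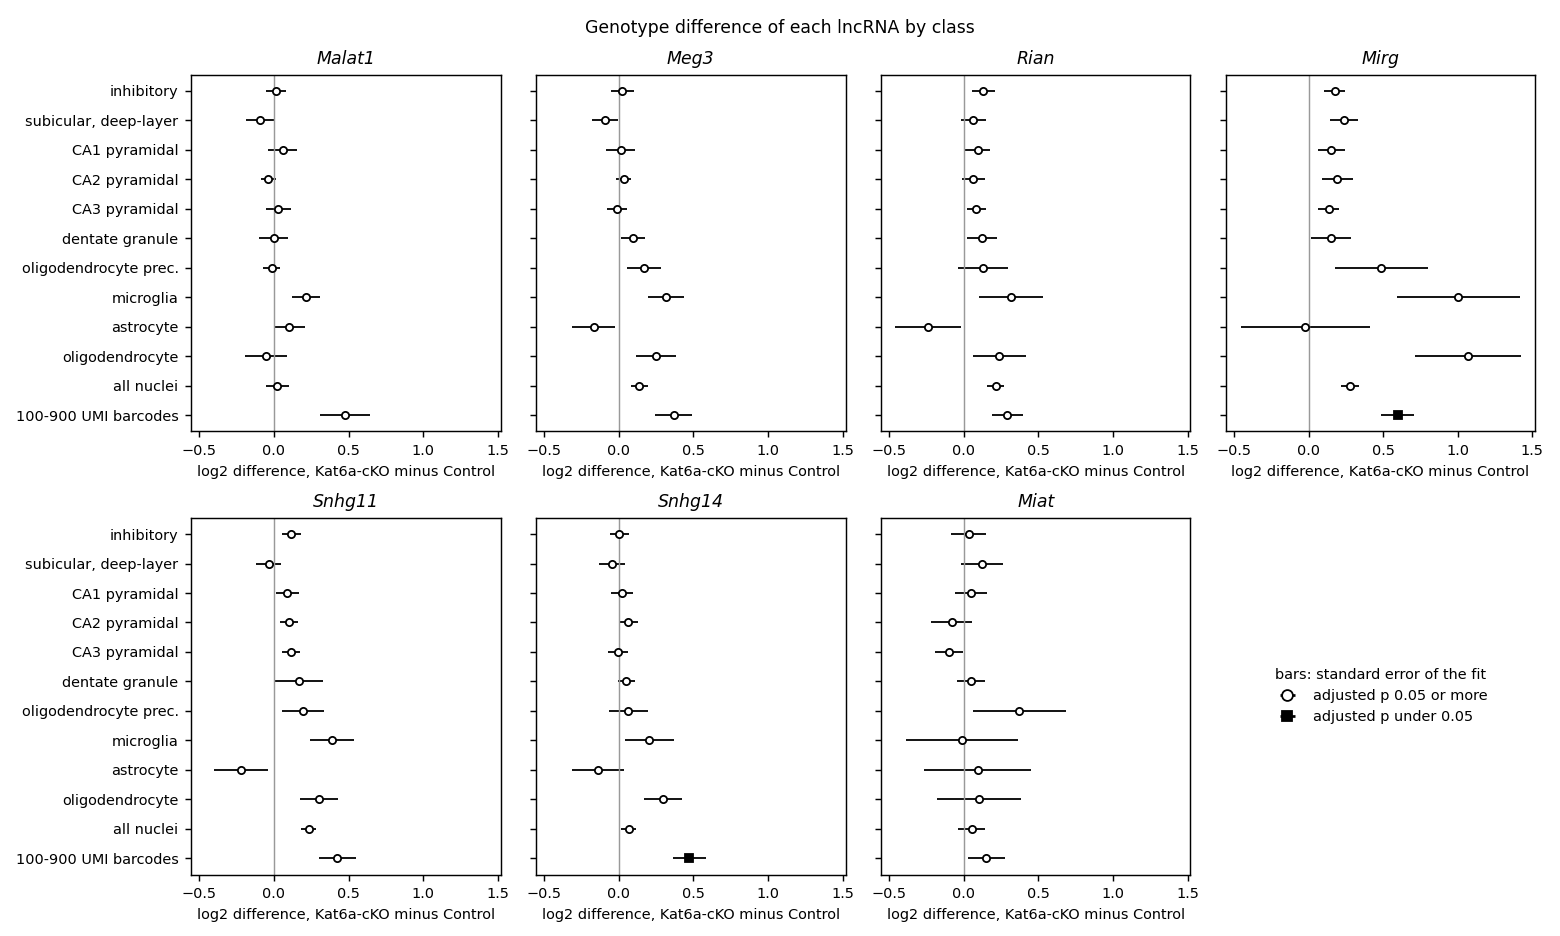
Log2 difference of Kat6a-cKO minus Control for each RNA by class, for all nuclei and for barcodes of 100 to 900 UMIs; bars are standard errors of the edgeR fit. Filled squares, at an adjusted p under 0.05, occur only for Mirg and Snhg14 in the low-count barcodes.

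Of the other lists, 3 were lower in Kat6a-cKO by their medians. None of the other long noncoding RNAs or the Dlk1-Dio3 neighbours was called in any class, and of the Prader-Willi and Angelman list only Atp10a was, in the subicular class (0.74, SE 0.11, edgeR adjusted p = 0.00271). Ribosomal protein genes were lower in Kat6a-cKO in every class by their median, from -0.32 in CA3 to -0.51 in dentate granule nuclei, where 23 of 78 were called lower. The median over all genes tested was within 0.01 of 0 in every class. Mitochondrially encoded genes had medians from -0.51 in inhibitory to -0.041 in microglia, and abundant cytoplasmic neuronal messenger RNAs from -0.53 in oligodendrocytes to -0.20 in CA3. Of the 13 cytoplasmic messages listed, 0 to 5 per class were called lower and none higher. In low-count barcodes the mitochondrial median was 0.096. Whether these differences in cytoplasmic RNA bear on the levels of the 7 RNAs was not tested.

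Over all nuclei, the 7 differences were positive and none was called by edgeR without a block. At the same adjusted threshold 0.0552% of all genes were called in that fit. An unadjusted edgeR p under 0.05 was found for 4 of the 7. The share of all genes at that unadjusted threshold is not reported here. Mirg was at 131, 134, 164 and 153 CPM, with a log2 difference of 0.28 (SE 0.06, edgeR adjusted p = 0.161). DESeq2 called it (adjusted p = 0.0332), among 460 genes called. With the replicate block, edgeR called Rian, Mirg and Snhg11, among 847 genes called. Snhg11 differed by 0.23, Rian by 0.21 and Meg3 by 0.14. In CPM, both Kat6a-cKO libraries were above both Control libraries for 5 of the 7, against 15.9% of genes. Dentate granule nuclei, which have low levels of these 4 RNAs, made up 43.6% and 41.7% of all nuclei in the Control libraries, against 37.8% and 36.5% in those of Kat6a-cKO. The part of class shares in the sums over all nuclei was not tested. Subicular nuclei, with high levels, were 3.11% and 2.82% of all nuclei in the Control libraries, against 5.20% and 5.08% in those of Kat6a-cKO. Within the 6 neuronal classes, differences ran from -0.092 to 0.093 for Meg3 and from 0.13 to 0.24 for Mirg.

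Differences between classes in the response to genotype were tested as an interaction with the library as a block, for CA3 against CA1, CA3 against dentate granule, CA1 against dentate granule and CA1 against inhibitory nuclei. None of the 28 interactions was called, none had an unadjusted p under 0.05 in edgeR, and the background was 0.117%, 0.254%, 0.0275% and 0.0635% of genes. They ranged from -0.14 to 0.09 in log2. For CA3 minus dentate granule, Snhg11 was called with opposite signs without Control library 1 (0.28, edgeR adjusted p = 9.57e-05) and without Control library 2 (-0.43, edgeR adjusted p = 1.25e-11). Without Control library 2, Meg3 in the same pair (-0.22, edgeR adjusted p = 0.00229) and Snhg11 in CA1 minus dentate granule (-0.48, edgeR adjusted p = 0.0398) were also called. Gabrg3, a receptor gene of the Prader-Willi and Angelman list, was called in the first 2 pairs (-1.01, SE 0.10, and -1.21, SE 0.16). Leaving out Control library 2 gave a call for Snhg11 in dentate granule nuclei (0.52, edgeR adjusted p = 0.00941), where that library had the highest of the 4 values. Leaving out Control library 1 gave one for Malat1 in microglia (0.35, edgeR adjusted p = 8.09e-04). Each result then rests on 1 Control library, assumed to vary like the other group.

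In barcodes of 100 to 900 UMIs, Mirg and Snhg14 were called higher in Kat6a-cKO. Mirg was at 49.4, 52.3, 91.0 and 74.6 CPM, a log2 difference of 0.60 (SE 0.11, edgeR adjusted p = 0.0284). Snhg14 was at 294, 252, 420 and 394 CPM, a log2 difference of 0.47 (SE 0.11, edgeR adjusted p = 0.0388). These 2 calls stand beside 4.63% of genes called higher and 8.57% called in either direction. The other 5 were positive and not called without a block, from 0.15 (Miat) to 0.48 (Malat1, SE 0.17, edgeR adjusted p = 0.0965). With the replicate block, edgeR called 6 of the 7, among 4972 genes called. Whether the replicate numbers pair the libraries is not known. In CPM, all 7 had both Kat6a-cKO libraries above both Control libraries, against 40.2% of genes. The call of Snhg14 was lost without Control library 2 (difference 0.38, edgeR adjusted p = 0.197) and without Kat6a-cKO library 1 (difference 0.45, edgeR adjusted p = 0.0715), and at 100 to 300 UMIs both calls were lost. The differences there were 0.59 for Mirg (edgeR adjusted p = 0.316) and 0.50 for Snhg14 (edgeR adjusted p = 0.194), about as large as at 100 to 900 UMIs. Rtl1 rose by 0.54 in the same barcodes (edgeR adjusted p = 0.0317).

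Other properties of these barcodes moved with genotype. They held 507 and 544 UMIs per barcode in Control and 410 and 379 in Kat6a-cKO. Of 78 ribosomal protein genes, 42 were called lower and none higher, with a median of -0.44. Kat6a itself was at 82.5 and 81.9 CPM in Control and at 60.3 and 62.5 CPM in Kat6a-cKO low-count barcodes. Of 36 other long noncoding RNAs, 7 were called higher, among them Rmst (0.92), 6530403H02Rik (0.65) and Neat1 (0.62), and 4 lower, Gas5, Zfas1, Snhg6 and Snhg8. The part of depth or of the mix of messages in the differences of Mirg and Snhg14 was not tested.

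The difference between low-count barcodes and nuclei in their genotype difference was then tested in 1 model with the library as a block, added after the data were seen. It was positive for all 7 RNAs and called for 4, namely Malat1 (0.47, SE 0.05), Snhg14 (0.43, SE 0.08), Mirg (0.33, SE 0.09) and Meg3 (0.25, SE 0.07). Of all genes, 3.76% were called higher and 4.81% in either direction. Without 1 library, Malat1 and Snhg14 kept the call each time, and Meg3 and Mirg lost it without Kat6a-cKO library 1 (differences 0.21 and 0.25, edgeR adjusted p = 0.308 and 0.155) and without Control library 1 (differences 0.25 and 0.27, edgeR adjusted p = 0.0528 and 0.252). Meg3 also lost it without Control library 2 (difference 0.26, edgeR adjusted p = 0.0637). All 13 mitochondrially encoded protein genes were positive in this test and 6 were called, and 10 of 41 other long noncoding RNAs were called higher and 1 lower.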

How the data were processed

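Single-nucleus RNA was counted in 4 hippocampal libraries, 2 Control and 2 Kat6a-cKO, grouped by the labels. The authors deposited UMI counts per gene and barcode, as whole numbers for all barcodes. The submitters' processing notes name mm10 and Seurat 4.0.1, while the aligner, annotation release and strand setting are not given in the sources used here. The members and the gene lists were chosen with earlier results of these data known.

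Barcodes of 1000 UMIs or more were clustered in scanpy 1.11.5 (2000 variable genes, 30 components, Leiden resolution 1) without the 7 RNAs, the listed genes and mitochondrial genes, 218 genes in all. Doublets called by Scrublet at an expected rate of 0.06 were left out. A cluster took a class name when at least 50% of a marker list, and at least 3 markers, were raised 2-fold. Further conditions (no other class leading the top genes, under 50% doublets, low UMIs for glia) were set after the clusters were seen.

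UMI sums per library and class were tested with edgeR 4.0.16 (TMM, filterByExpr, quasi-likelihood) in R 4.3.3, with Benjamini-Hochberg adjustment over all genes tested and a threshold of 0.05. Each comparison of groups used the 4 libraries with no covariate, and comparisons within libraries had the library as a block. CPM are counts per 1000000 counts of the sum. DESeq2 1.42.0, other scalings, filters, cluster settings, UMI limits, the replicate block and leaving out each library were alternatives. The test was also run on simulated counts, and the outcome is not reported here. Apart from the 7 RNAs, genes were named if they were among the 3 most similar to a member, or in a list if called or among its 5 highest; some genes that met this rule are not reported here. Barcodes of 100 to 900 UMIs held 27848331 to 38635682 counts per library, and CPM near 10 in glia rest on few molecules.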

Additional observations from a re-analysis of the deposited data

Results flagged for a closer look

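The genotype difference was larger in barcodes of 100 to 900 UMIs than in nuclei of the same libraries for 4 of the 7 RNAs, by an interaction test in edgeR that was added after the data were seen. The log2 differences of the differences were 0.47 for Malat1 (adjusted p = 9.27e-04), 0.43 for Snhg14 (adjusted p = 0.00847), 0.33 for Mirg (adjusted p = 0.045) and 0.25 for Meg3 (adjusted p = 0.0472), beside 3.76% of all genes called higher and 4.81% in either direction. The calls of Malat1 and Snhg14 held with each library left out in turn. Mirg lost its call without Control library 1 (edgeR adjusted p = 0.252) and without Kat6a-cKO library 1 (0.155), and with the size factors of the DESeq2 kind (0.0634), at differences of 0.27, 0.25 and 0.32. Meg3 lost its call without Control library 1 (edgeR adjusted p = 0.0528), Control library 2 (0.0637) or Kat6a-cKO library 1 (0.308), and at a mean of 10 CPM or more (0.0579), at differences of 0.25, 0.26, 0.21 and 0.30. UMIs per low-count barcode differed between the groups as well, 507 and 544 against 410 and 379, and their part in these values was not tested.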

How the results depend on the processing

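With 2 libraries a group, counts of called genes moved with most settings, while the 7 RNAs passed in few. In the classes CA1, CA3, CA2, dentate granule, subicular, inhibitory, astrocyte, oligodendrocyte, oligodendrocyte precursor and microglia, and in all nuclei, DESeq2 called 109, 29, 17, 206, 59, 13, 40, 2, 1, 0 and 460 genes. Without a filter on low counts, CA1, CA3, CA2, dentate granule, subicular, inhibitory, astrocyte, oligodendrocyte, microglia and all nuclei had 547, 1, 90, 522, 327, 62, 194, 119, 0 and 1. At a mean of 10 CPM or more CA1, CA3, dentate granule, inhibitory, microglia and all nuclei had 1, 1, 32, 0, 5 and 1, and the 4 class interactions had 2, 27, 1 and 3. Leiden resolution 2 gave 8 in CA1 and 0 in inhibitory nuclei. With doublets kept, CA3, CA2 and inhibitory nuclei had 5, 18 and 0, and the Malat1 range between classes was 3.23-fold. Without the members in the total CA3 had 3, and at 8000 UMIs or more, with glia from 2000, microglia had 5.

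Whether the replicate numbers pair the libraries cannot be settled from 2 numbers. Deviations from the group means of same-numbered libraries correlated positively, at 0.036 to 0.337 over genes. With the replicate block, 4, 2, 17, 403, 492, 27, 312, 310, 2 and 117 genes were called in the 10 classes in the order above, 847 in all nuclei and 4972 in low-count barcodes. Under the block 1 of the 7 RNAs was called in oligodendrocytes (Mirg), 3 in all nuclei (Rian, Mirg and Snhg11) and 6 in low-count barcodes. DESeq2 called 1 in all nuclei (Mirg).

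With 1 library left out, the genes called ranged from 1 to 509 in CA1, 5 to 271 in CA3, 24 to 65 in CA2, 34 to 425 in dentate granule, 88 to 187 in subicular, 19 to 140 in inhibitory, 63 to 129 in astrocyte, 4 to 161 in oligodendrocyte, 14 to 39 in oligodendrocyte precursor and 6 to 97 in microglia, 2 to 274 in all nuclei and 687 to 3566 in low-count barcodes. For the interactions they ranged from 12 to 294 (CA3 and CA1), 30 to 204 (CA3 and dentate granule), 8 to 151 (CA1 and dentate granule), 4 to 142 (CA1 and inhibitory) and 571 to 2168 (low-count barcodes and nuclei). Of the 7 RNAs, 0 to 1 were called in dentate granule nuclei and in microglia, 1 to 4 in low-count barcodes, 0 to 2 and 0 to 1 for CA3 and CA1 against dentate granule, and 2 to 5 for low-count barcodes against nuclei. Signs turned within these ranges of log2 differences: Snhg11 in dentate granule -0.12 to 0.52, Rian in astrocytes -0.41 to 0.036, Malat1 and Miat in all nuclei -0.091 to 0.14 and -0.059 to 0.16, and Miat in low-count barcodes -0.028 to 0.34. For CA3 minus dentate granule they were -0.22 to 0.037 (Meg3) and -0.43 to 0.28 (Snhg11), and for CA1 minus dentate granule -0.0067 to 0.11 (Malat1) and -0.48 to 0.24 (Snhg11). The calls of Snhg11 and Meg3 there came without Control library 1 or 2.

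Against total counts alone Miat in nuclei over low-count barcodes was -0.33, and against barcodes of 100 to 300 UMIs it was 1.04, with 12604 genes called. At 100 to 300 UMIs the genotype comparison called 11 genes and 0 of the 7 RNAs. For low-count barcodes minus nuclei, the calls of Mirg with the size factors of the DESeq2 kind and of Meg3 at 10 CPM or more were lost, at differences of 0.32 and 0.30. The cause of these changes was not tested. Class levels moved by more than 1 SD in 0, 2, 4 and 4 of 70 with 8000 UMIs, Leiden resolution 2, doublets kept and equal weight per nucleus, at ratios of 0.863 to 1.09.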
